A study of Caenorhabditis elegans with 4 samples.

Results

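The regions described here are the NURF-1 binding peaks on chromosome III of Caenorhabditis elegans, chosen by their chromosome alone. The series-wide list (here the combined list) places 2167 of its 10483 peaks there. The figures are 1878 of 9065 and 1499 of 7519 for the lists of ChIP replicates 1 and 2. Chromosome III carried 20.7% of the nuclear combined peaks on 13.7% of the nuclear length, which makes it the most densely bound chromosome by point value. All positions are on the WormBase WS220 build, and chromosome III was taken to end at 13783700, the last base of any peak on it.

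The study mapped NURF-1 by chromatin immunoprecipitation and sequencing (ChIP-seq) in wild-type N2 larvae at the L3 stage, a mixed population of males and hermaphrodites kept at 20 °C. The 4 libraries are 2 ChIP replicates and 2 inputs (genomic DNA without immunoprecipitation), all from the same strain and stage, and there is no mutant or treated group. The labels do not state that the ChIP replicates came from separate cultures. Ground whole larvae were crosslinked with EGS, which joins neighbouring proteins, and formaldehyde, and an affinity-purified rabbit polyclonal antibody was used, so the peaks pool all cell types of the animal. With 1 group of 2 replicates no test between groups was possible. The replicate lists are set beside the combined list for the main results, while some details are given for the combined list alone. The intervals (95% exact Poisson or Wilson) cover counting error over peaks only. Neighbouring peaks are not independent, so these intervals are too narrow where peaks cluster. The lists hold no reads, so sequencing depth is unknown.

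NURF-1 is the worm relative of BPTF, the large subunit of the NURF complex, in which an ATPase of the ISWI family (ISW-1 in worms) slides nucleosomes along DNA. In mammals, BPTF binds histone marks of active promoters through a PHD finger and a bromodomain. In C. elegans, nurf-1 and isw-1 are known for acting against the synMuv genes in vulval development, which takes shape from the L3 stage on. The autosomes of the worm have gene-rich centres with little recombination, flanked by arms that recombine more often and hold more repeats.

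The density on III was higher than on the rest of the nuclear genome in every list. On III 157.2 peaks per Mb were listed in the combined set (150.7 to 163.98), against 96.1 per Mb over the other 5 chromosomes together (94.1 to 98.2), a ratio of 1.64 (1.56 to 1.71). Replicate 1 held 136.2 per Mb on III (130.2 to 142.6) and 83.1 elsewhere, a ratio of 1.64 (1.56 to 1.73). In replicate 2 the values were 108.8 on III (103.3 to 114.4) and 69.6 elsewhere, with a ratio of 1.56 (1.48 to 1.65). The nearest neighbour in this order was chromosome I. III and I had 157.2 and 149.6 peaks per Mb in the combined list, 136.2 and 132.4 in replicate 1, and 108.8 and 107.7 in replicate 2. Their intervals overlapped in all 3 lists, so III was not separated from I by these counts. Peaks covered 8.94% of III and 5.39% of the other chromosomes in the combined list, 7.63% and 4.57% in replicate 1, and 4.97% and 3.13% in replicate 2. On chromosome I alone they covered 8.64%, 7.49% and 4.87% in the same 3 lists.

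The excess on III was similar for strong and for weak peaks. Strong peaks are defined here as the highest-scoring 25% of a list over all nuclear chromosomes, and weak peaks as the lowest-scoring 25%. The score is the authors' own, of unstated scale, and ranks peaks within a list only. In the combined list strong peaks scored 58.2 or more and weak peaks 6.08 or less. On that basis III had 39.0 strong peaks per Mb, against 24.1 on the other chromosomes, a ratio of 1.62 (1.47 to 1.78). It had 39.7 weak peaks per Mb, against 24.3, a ratio of 1.63 (1.48 to 1.79). In replicate 1 the ratios were 1.65 for strong peaks and 1.70 for weak ones, and in replicate 2 they were 1.70 and 1.55. Chromosome I alone was close to III, with 37.6 strong and 37.6 weak peaks per Mb in the combined list. In replicate 1 it had 33.0 and 30.8, against 34.3 and 35.1 on III. In replicate 2 it had 27.7 and 27.7, against 29.1 and 27.7 on III. Of the III peaks in the combined list, 24.8% were strong (23.1 to 26.7) and 25.2% weak (23.5 to 27.1), against 25.1% and 25.3% of the peaks elsewhere. The make-up of III by strength was thus within counting error of that of the other chromosomes.

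III also differed little from the other chromosomes together in the shortest distances between adjacent peaks, and more in the longer ones. Distances were taken between the midpoints of neighbouring peaks. On III the combined list gave a median of 2826 bp (2646 to 3032), replicate 1 one of 3239 bp (3014 to 3523) and replicate 2 one of 3897 bp (3459 to 4350). Over the other chromosomes the same 3 lists gave 3734 bp, 4274 bp and 5137 bp. The III median was 5990 bp when only combined peaks found in both replicates were counted. At the short end the distributions nearly met. Distances have a floor there, since on III no peak was narrower than 146 bp and no gap shorter than 51 bp. The short end thus cannot show that packing was alike, and the combined lower quartiles were 1192 bp on III and 1357 bp elsewhere. In the combined list 10% of distances were at or below 673 bp on III and 688 bp elsewhere. At the long end they parted, with 10% of distances above 16023 bp on III and above 28603 bp elsewhere. The same was seen in replicate 1, with 694 bp on III and 716 bp elsewhere at the short end, and 18683 bp and 32302 bp at the long end. In replicate 2 the pairs were 585 bp and 632 bp, then 24674 bp and 38864 bp. Chromosome I alone was closer to III, with a combined-list median of 3064 bp. The middle 50% of its distances ran from 1316 to 7967 bp, against 1192 to 7262 bp on III. Its medians were 3412.5 bp in replicate 1 and 4235 bp in replicate 2. The wider spacing elsewhere is thus that of the pooled chromosomes.

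**Figure D1:**
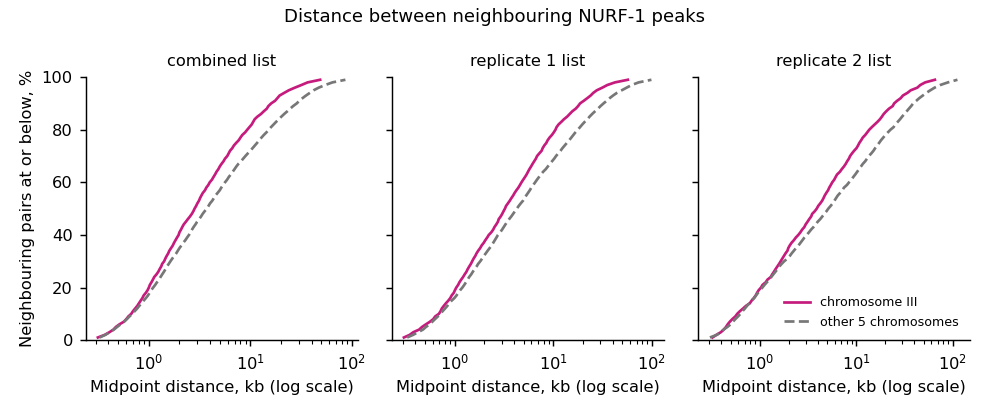
Cumulative share of neighbouring NURF-1 peak pairs (y axis, %) by the distance between their midpoints (x axis, kb, log scale), for chromosome III (solid) and the other 5 nuclear chromosomes (dashed) in each list. The curves nearly meet below 1 kb and part at longer distances, where III has 10% of distances above 16023 bp in the combined list, against 28603 bp elsewhere.

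Grouping peaks into clusters gave the same picture. A cluster was any chain of peaks separated by gaps under 1 kb, and a peak with no such neighbour counted as a cluster of 1. III held 102.7 clusters per Mb (97.4 to 108.2) in the combined list and the other chromosomes 67.5 (65.8 to 69.3), a ratio of 1.52 (1.43 to 1.61). The cluster density ratio was 1.54 in replicate 1 and 1.53 in replicate 2. A cluster held 1.53 peaks on average on III and 1.42 elsewhere in the combined list. In replicate 1 the averages were 1.46 on III and 1.37 elsewhere, and in replicate 2 they were 1.38 and 1.35. The cluster density ratio of 1.52 was thus the greater part of the peak density ratio of 1.64, and the ratio of cluster sizes, 1.07, the smaller. Clusters were not counted for chromosome I alone.

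Spacing on III was uneven. The middle 50% of distances in the combined list ran from 1192 to 7262 bp, and their standard deviation was 1.50 times their mean. This was not particular to III, since the same ratio was 1.69 over the other chromosomes together. Singly, they ran from 1.41 on X and 1.45 on I to 1.68 on V. Gaps between the end of a peak and the start of the next were at least 51 bp in all 3 lists, and no peak was narrower than 146 bp in any of them. Of 2166 gaps, 751 (34.7%, 32.7 to 36.7) were under 1 kb, and 141 (6.51%) exceeded 20 kb. Those 141 long gaps took up 35.3% of the chromosome. Of 1416 clusters, 987 were single peaks, 272 were pairs and 157 held 3 peaks or more, which together made up 636 peaks. The largest cluster held 12 combined peaks in 10906 bp, at chrIII:7727353-7738258. None of its peaks was strong and their median score was 8.95, while replicate 1 had 12 peaks there and replicate 2 had 9. The next held 11 peaks at chrIII:12218187-12228174, of which 2 were strong, with 11 peaks in replicate 1 and 7 in replicate 2. After it came a cluster of 10 peaks at chrIII:11825239-11835073, with 9 peaks in replicate 1 and 8 in replicate 2.

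The 5 longest gaps of the combined list spanned 72.3 to 81.7 kb. The longest, at chrIII:11344499-11426234, held no replicate 1 peak and 1 replicate 2 peak with a score of 6.91. The gaps at chrIII:12980690-13061203 (80.5 kb) and chrIII:12743241-12815496 (72.3 kb) held no peak in either replicate, and both touch the densest 1-Mb bin of the chromosome. The gap at chrIII:1627758-1705195 (77.4 kb) met 2 replicate 1 peaks, 1 of which scored 86.86 and reached in from its edge, and no replicate 2 peak. That at chrIII:7387404-7463190 (75.8 kb) was bounded by 2 strong peaks, with combined scores of 148.25 and 87.73, and met 1 replicate 1 peak at its edge (score 88.17) and 3 replicate 2 peaks scoring at most 6.84. Every whole 100-kb window of III held at least 4 combined peaks. The median over 137 windows was 15 and the highest value 47, and 5 windows had no strong peak.

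Along the chromosome, the 14 bins of 1 Mb held a median of 159 combined peaks per Mb. The bins ran from 99 at 0 to 1 Mb (80.5 to 120.5) to 243 at 12 to 13 Mb (213.4 to 275.6). The 2 bins at the left end were the sparsest in all lists, with 99 and 113 combined peaks, 82 and 87 replicate 1 peaks, and 74 and 75 replicate 2 peaks. At the right end the last 0.784 Mb held 204.2 combined peaks per Mb, 177.4 in replicate 1 and 123.8 in replicate 2. The left and right ends of III were thus unlike in density. Over the 14 bins the densities of the replicates ranked alike (Spearman rho 0.76, Pearson r 0.83, given as a description, since bins share their libraries). For strong peaks the rank correlation was 0.90 and for weak peaks 0.73.

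**Figure D2:**
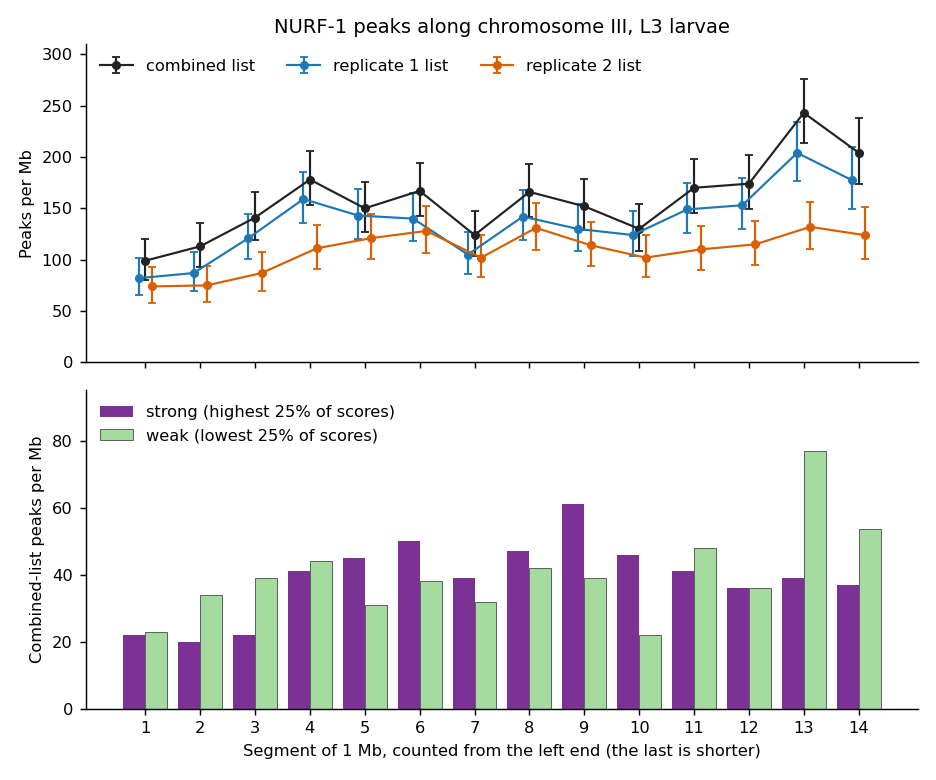
NURF-1 peaks per Mb in 14 consecutive segments of chromosome III: all peaks in the 3 lists with 95% exact Poisson intervals (top), and strong and weak peaks of the combined list (bottom). Segment 13 stands highest in the combined list at 243 peaks per Mb, with 77 weak and 39 strong peaks, while the most strong peaks, 61, lie in segment 9.

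Bins dense in peaks were dense in weak peaks and not always in strong ones. Over the 14 bins the density of all combined peaks ranked with that of weak peaks (rho 0.82) and only loosely with that of strong peaks (rho 0.22). Weak and strong densities had a rho of 0.07. All peaks include both classes, so the first correlation is built in to a degree. Strong peaks were fewest at 1 to 2 Mb, with 20 combined peaks, 18 of replicate 1 and 16 of replicate 2. They were most frequent at 8 to 9 Mb, with 61, 50 and 39, the last tied with the 39 of replicate 2 at 9 to 10 Mb. Weak combined peaks were fewest at 9 to 10 Mb, where 22 lay beside 46 strong peaks. In the replicates they were fewest at 0 to 1 Mb, with 19 and 15, where the combined list had 23. They were most frequent at 12 to 13 Mb in all 3 lists, with 77 combined peaks, 66 of replicate 1 and 43 of replicate 2. The median score of a bin ranged from 9.11 at 1 to 2 Mb to 23.4 at 9 to 10 Mb in the combined list. In replicate 1 it ranged from 8.42 in the last bin to 32 at 6 to 7 Mb, and in replicate 2 from 6.71 at 2 to 3 Mb to 24.1 at 8 to 9 Mb. The median width was lowest at 2 to 3 Mb and highest at 8 to 9 Mb in all 3 lists, with 248 and 574 bp in the combined list.

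The densest bin, 12 to 13 Mb, was dense in weak and intermediate peaks. It held 77 weak, 127 intermediate and 39 strong combined peaks. The rest of III averaged 36.8 weak, 74.7 intermediate and 39.0 strong peaks per Mb. In the replicates the bin was below the median bin in strong peaks. Replicate 1 had 28 there against a median of 34.5 per Mb over the 14 bins, and replicate 2 had 23 against 31. In the combined list the median score of the bin was 9.59 and its median width 283 bp, against 13.6 and 398 bp over the rest of III. Peaks covered 11.3% of the bin and 8.76% of the rest. In replicate 1 the bin had the highest coverage of the 14 bins, 9.45%. In replicate 2 it had 5.55%, below the 6.32% at 5 to 6 Mb. Clusters were larger in the bin, with 2.03 peaks on average against 1.48 over the rest in the combined list. The averages were 1.84 and 1.42 in replicate 1, and 1.50 and 1.37 in replicate 2. Combined clusters numbered 120 per Mb in the bin (99.5 to 143.5) and 101.4 over the rest (95.9 to 107.1). The lists differed over the size of the density excess. The bin had 1.53 times the density of the median bin in the combined list (1.34 to 1.73), 1.45 times in replicate 1 (1.26 to 1.66) and 1.17 times in replicate 2 (0.982 to 1.39). These intervals take the median bin as fixed and do not allow for the bin being picked as the highest. Replicate 2 had 132 peaks there and 131 at 7 to 8 Mb. Replicate 1 had 1.55 times as many peaks as replicate 2 in this bin, against 1.25 times over III as a whole and a lowest ratio of 1.03 at 6 to 7 Mb. Of the combined peaks in the bin, 40.3% (34.4 to 46.6) were found in both replicates and 39.9% (34.0 to 46.2) in replicate 1 alone. Over the rest of III the shares were 52.9% (50.6 to 55.1) and 28.2% (26.3 to 30.3). Combined peaks found in both replicates numbered 98 per Mb in the bin and 79.6 over the rest, and those found in replicate 1 alone 97 and 42.5 per Mb. Counting only peaks in both, the bin had 1.09 times the density of the median bin (0.889 to 1.33).

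Within the bin the peaks were again uneven. Its 10 windows of 100 kb held 9 to 47 combined peaks and 1 to 8 strong ones. The window at 12600001 to 12700000 was the densest of the chromosome, with 47 combined, 37 replicate 1 and 19 replicate 2 peaks. Of those 47, 18 were weak, 5 were strong and 12 were found in both replicates, and peaks covered 20.3% of the window. The second densest, 12900001 to 13000000, lay in the same bin with 33 combined, 27 replicate 1 and 20 replicate 2 peaks, 8 of the combined ones strong. Next, tied at 32 combined peaks, came 3 windows outside the bin. The window at 7700001 to 7800000 includes the largest cluster and had 29 replicate 1 and 22 replicate 2 peaks. That at 11900001 to 12000000 had 31 and 27, and that at 13200001 to 13300000 had 25 and 15. The 3 sparsest windows, at 700001 to 800000, 6000001 to 6100000 and 9300001 to 9400000, held 4 combined peaks each and 3 or 4 in each replicate. These 3 windows were not empty of strong binding, with 2, 3 and 2 strong peaks and no weak peak in the combined list. Other sparse windows were, such as that at 1300001 to 1400000, with 5 combined peaks and no strong one.

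The chromosome was divided into 3 sections of equal length. All peaks and strong peaks gave these sections different orders. The left, middle and right sections held 625, 679 and 863 combined peaks, or 136.0, 147.8 and 187.8 per Mb. In replicate 1 the densities were 117.5, 127.3 and 163.9 per Mb, and in replicate 2 they were 90.3, 118.0 and 118.0. The right section had 1.38 times the density of the left in the combined list (1.24 to 1.53), 1.39 times in replicate 1 (1.25 to 1.56) and 1.31 times in replicate 2 (1.15 to 1.49). The middle had 0.913 times the density of the outer sections together in the combined list (0.832 to 1.00) and 0.905 times in replicate 1 (0.819 to 0.998). In replicate 2 it had 1.13 times (1.02 to 1.26), so the lists disagreed on the direction for all peaks. It was 1.16 (1.02 to 1.31) for combined peaks found in both replicates and 1.08 by bases covered.

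Strong peaks were densest in the middle in every list. The combined list held 28.3 strong peaks per Mb in the left section (23.6 to 33.6), 48.5 in the middle (42.4 to 55.3) and 40.3 in the right (34.7 to 46.5). The middle had 1.42 times the density of the outer sections together (1.19 to 1.69). The same ratio was 1.43 (1.18 to 1.72) in replicate 1 and 1.31 (1.07 to 1.61) in replicate 2. With strong peaks as the highest 10% of the combined list it was 1.28 (0.973 to 1.67), an interval that includes 1. For the highest 25%, the right section had 1.42 times the density of the left in the combined list (1.13 to 1.79). That right-to-left ratio was 1.34 (1.05 to 1.71) in replicate 1 and 1.30 (1.00 to 1.70) in replicate 2. The low density of the left section thus enters the contrast of the middle with the outer sections. Weak peaks had middle-to-outer ratios of 0.834 (0.690 to 1.01) in the combined list, 0.667 (0.538 to 0.821) in replicate 1 and 0.984 (0.789 to 1.22) in replicate 2. With weak peaks as the lowest 10% of the combined list the ratio was 1.02 (0.759 to 1.36). These 10% divisions were chosen after the values were seen. The strong-peak ratio on III was the lowest of the autosomes in the combined list by point value, and within the intervals of I, II and IV. It was 1.42 on III, 1.45 (1.22 to 1.71) on I, 1.67 (1.38 to 2.03) on II, 1.51 (1.25 to 1.83) on IV and 1.75 on V, while X had 0.924 (0.699 to 1.21). In replicate 1 the ratio on I, 1.40, was below the 1.43 of III. In replicate 2 III was again the lowest of the autosomes, with 1.31 against 1.36 on I.

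**Figure D3:**
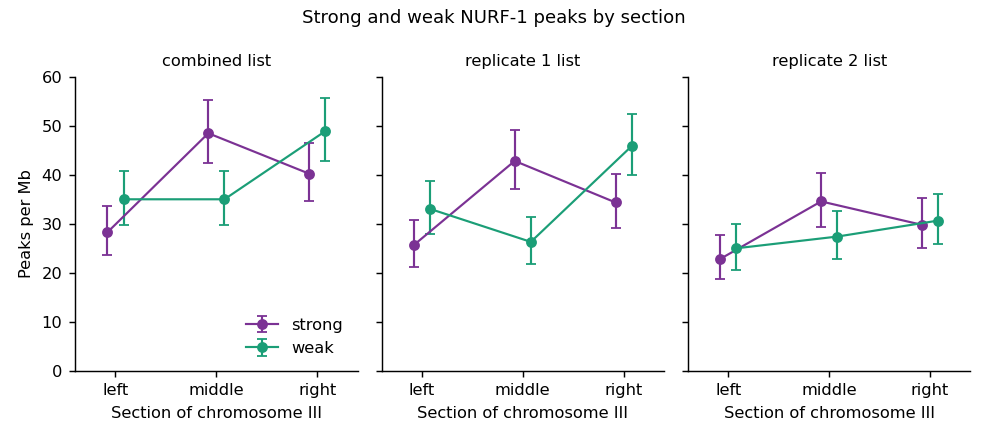
Strong (purple) and weak (green) NURF-1 peaks per Mb in the left, middle and right sections of chromosome III in each list, with 95% exact Poisson intervals. By point value, strong peaks are highest in the middle in all 3 lists (48.5 per Mb in the combined list), while weak peaks are highest in the right section (49.0 per Mb).

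The character of the binding changed with the section. The median combined score was 20.4 in the middle, 10.6 in the left and 11.9 in the right section, and the median width was 497 bp, 325 bp and 345 bp in the same order. The replicates had the same pattern, with median scores of 24.8 in the middle, 11.1 in the left and 11.5 in the right section of replicate 1, and 13.3, 8.91 and 9.84 in replicate 2. Among strong combined peaks alone the median scores were 118.7 in the middle, 125.9 in the left and 120.6 in the right section. Among intermediate peaks the middle was higher, with 15.3 in the middle, 11.5 in the left and 12.6 in the right section, and wider, with 431 bp, 320.5 bp and 346 bp. The median scores of intermediate peaks were 18.4, 12.4 and 13.045 in replicate 1, and 11.3, 9.35 and 9.87 in replicate 2. Clusters were smaller in the middle, with 1.38 peaks on average, against 1.52 in the left and 1.68 in the right section. The middle also had the highest share of peaks found in both replicates, 60.2% (56.5 to 63.8), against 48.0% (44.1 to 51.9) in the left and 47.0% (43.7 to 50.4) in the right.

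Strong and weak peaks on III were of different sizes. The median width of strong combined peaks was 994 bp, with 50% of them between 797 and 1289 bp. Weak peaks had a median of 196 bp, with 50% between 164.5 and 259 bp. Strong peaks were thus 5.07 times as wide as weak ones in the combined list, 4.64 times in replicate 1 (947 and 204 bp) and 3.65 times in replicate 2 (700 and 192 bp). Among combined peaks found in both replicates the ratio was 2.33, with 10 weak peaks. Of strong combined peaks, 96.7% were wider than 500 bp, compared with 2.93% of weak ones. Strong peaks numbered 538, close to the 547 weak ones, but made up 48.9% of the bases covered on III, against 10.3% for weak peaks. Width and score ranked alike over all III peaks (Spearman rho 0.80), less so among strong peaks (0.29) and weak peaks (0.11) alone, where the range of scores is narrower. Width and score come from the same reads and are not independent.

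**Figure D4:**
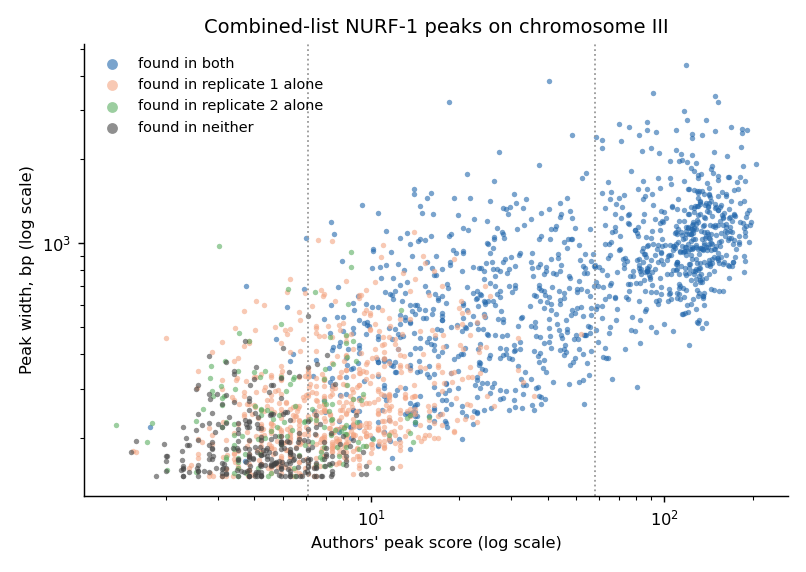
Width (y axis, bp, log scale) against the authors' score (x axis, log scale) of the 2167 combined-list peaks on chromosome III, coloured by the replicate lists in which they were found; dotted lines mark the limits of weak (6.08) and strong (58.2) peaks. All 538 strong peaks were found in both replicates, and peaks found in neither have scores of at most 11.8.

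Weak peaks stood closer to their neighbours. The median distance to the nearest peak of any strength was 2146 bp for strong peaks and 1019 bp for weak ones in the combined list. It was 2671 bp and 972 bp in replicate 1, and 2554 bp and 1191 bp in replicate 2. Another peak lay within a gap of 1 kb for 44.1% of strong and 61.2% of weak combined peaks. Weak peaks had another weak peak nearby more often than a strong one. Of 547 weak combined peaks, 21.6% (18.3 to 25.2) had a strong peak within 2 kb of their midpoint, while 31.6% (27.9 to 35.6) had another weak peak that near. The shares were 20.0% and 32.6% in replicate 1, and 18.1% and 30.1% in replicate 2. Of 538 strong peaks, 7.62% (5.67 to 10.2) had a strong neighbour within 2 kb, and their median distance to the nearest one was 7815 bp (6591 to 8956). In replicate 1 that median was 8984 bp and in replicate 2 it was 11051 bp. These distances run between midpoints, and strong peaks were wider, with a median of 994 bp against 196 bp for weak ones. Wide peaks leave less room within 2 kb, so the shares of strong and of weak peaks are not on one scale. Peaks with no neighbour within 10 kb on either side numbered 104, of which 25 were strong and 19 weak.

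By an overlap of at least 1 bp, 1115 of the 2167 combined peaks on III (51.5%, 49.3 to 53.6) were found again in both replicates, against 53.3% (52.2 to 54.3) of the peaks on the other chromosomes. A further 640 (29.5%, 27.7 to 31.5) overlapped a peak in replicate 1 alone, 136 (6.28%, 5.33 to 7.38) in replicate 2 alone and 276 (12.7%, 11.4 to 14.2) in neither. Peaks found in both had median values of 53.9 for the score and 782 bp for the width. These medians were 7.55 and 248 bp for replicate 1 alone, 5.46 and 228 bp for replicate 2 alone, and 4.33 and 174 bp for neither. How the combined list was made is not stated and it may rest on the replicates' reads, so the link between score and sharing is no independent check of the peaks. With a 50% reciprocal overlap in place of 1 bp the share in both was 36.2%.

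Sharing rose with the score, mostly between scores of 7.01 and 39.52. III peaks were ranked by combined score and split into 10 groups of 216 or 217. In the lowest 3 groups, up to 7.01, between 1.38% and 4.61% were in both replicates. The share was 21.3% in the next group (7.01 to 9.11), 33.6% at 9.11 to 12.93, 64.1% at 13.07 to 20.62 and 88.9% at 20.65 to 39.52. It was 99.5% at 39.52 to 84.8, where 1 peak was in replicate 1 alone, and 100% in the highest 2 groups. The peak in replicate 1 alone with the highest score reached 52.02. All 538 strong peaks were in both (100%, 99.3 to 100), compared with 10 of 547 weak ones (1.83%, 0.996 to 3.33). On the other chromosomes 99.95% of strong and 2.09% of weak peaks were in both, so the sharing of strong and of weak peaks on III was within counting error of theirs. For intermediate peaks the share was 52.4% on III (49.4 to 55.4) and 55.8% elsewhere (54.2 to 57.3). Median scores of intermediate peaks were 13.1 on III and 14.1 elsewhere.

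**Figure D5:**
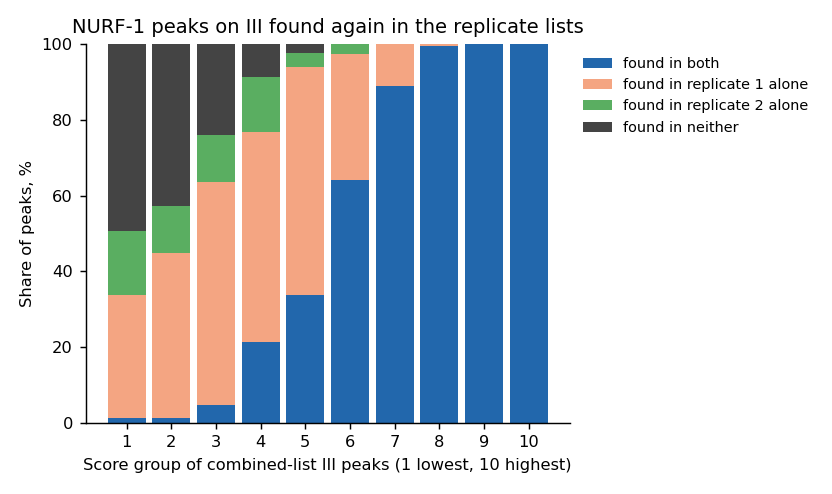
Share of combined-list peaks on chromosome III found in both, one or neither of the replicate lists (y axis, %), by score group (x axis, 10 groups of 216 or 217 peaks each). The share found in both is 1.38% in the lowest group and 100% in the 2 highest.

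Between the replicates themselves, 1162 of 1878 replicate 1 peaks on III (61.9%, 59.7 to 64.0) overlapped a replicate 2 peak, and 1266 of 1499 replicate 2 peaks (84.5%, 82.5 to 86.2) overlapped a replicate 1 peak. Elsewhere the shares were 64.2% (63.1 to 65.3) and 83.0% (82.0 to 83.9). With a 50% reciprocal overlap the shares on III were 44.7% and 55.97%. All 473 strong replicate 1 peaks and all 401 strong replicate 2 peaks on III had a partner. Of weak peaks, 22.5% (19.0 to 26.5) of replicate 1 and 59.9% (55.0 to 64.7) of replicate 2 had one. The share of replicate 1 peaks with a partner was lowest at 2 to 3 Mb, at 43.0%, and 51.5% in the densest bin.

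Where peaks of the replicates overlapped, their midpoints mostly lay close together. The overlap itself limits how far apart the midpoints of a pair can lie. Over 988 one-to-one pairs on III, the median offset between midpoints was 45 bp (41.5 to 49), and 78.5% of pairs lay within 100 bp. The median offset was 52 bp for 325 pairs strong in both lists and 43.5 bp for 44 pairs weak in both. Median widths were 926 and 701 bp in the strong pairs and 252 and 192 bp in the weak ones. Offsets of weak pairs thus had less room, and the 2 medians cannot be compared. Over all pairs the median offset also varied little by section. It was 49 bp in the left, 43.5 bp in the middle and 45 bp in the right section. Replicate 1 gave the wider peak in 852 of the 988 pairs, with a median width of 641.5 bp against 429 bp in replicate 2. Scores ranked alike across the pairs (Spearman rho 0.89, across peaks, which are not independent). Among pairs strong in both rho was 0.65, and among pairs weak in both it was -0.047. Of 402 pairs that were strong in replicate 1, 325 were strong and 77 intermediate in replicate 2, and none was weak. Among pairs strong in replicate 2, 14 were intermediate and 2 were weak in replicate 1.

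The peaks divided in a replicate were wide ones. Of the combined peaks on III that overlapped a replicate 1 peak, 95 (5.41%) overlapped at least 2 and the most was 4. For replicate 2 the number was 137 (10.95%) and the most was 5. Their median widths were 1115 bp and 1345 bp, compared with 472 bp and 640 bp for peaks that matched a single one. The widest combined peak on III was 4389 bp at chrIII:9050845-9055233, with a score of 118.71. Replicate 1 called it as 1 peak scoring 137.42 and replicate 2 as 2 peaks, the higher scoring 152.3. The second, 3817 bp at chrIII:5940209-5944025, scored 40.26, which is not among the strong peaks, and was 2 peaks in each replicate. The others were 3478 bp at chrIII:10214059-10217536 (score 91.11), 3392 bp at chrIII:1417634-1421025 (149.07) and 3231 bp at chrIII:13461920-13465150 (152.92). Width alone therefore did not mark the highest-scoring sites.

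The 10 highest-scoring combined peaks on III found in both replicates scored between 188.85 and 205.99 and measured 1013 to 2556 bp. The same sites scored between 172.33 and 234.26 in replicate 1, and between 120.68 and 272.15 in replicate 2. The highest, at chrIII:3915377-3917307, had a combined score of 205.99 and replicate scores of 234.26 and 248.3. It had rank 1 among III peaks in replicate 1 and rank 7 in replicate 2. The replicates outlined it differently, with 1 peak at 3915352 to 3917315 in replicate 1 and 1 at 3916477 to 3917184 in replicate 2. Next came chrIII:8767224-8768419 with a combined score of 196.7 and replicate scores of 176 and 251.54. It was followed by chrIII:10868580-10869745, with a combined score of 195.21, 204.7 in replicate 1 and 197.03 in replicate 2. That site is the only 1 of the 10 in the right section.

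The widest of the 10, at chrIII:1617667-1620222, was 2556 bp long and scored 190.6, with 223.88 in replicate 1 and 272.15 in replicate 2. It had rank 31 among all combined peaks, and among III peaks rank 3 in replicate 1 and rank 2 in replicate 2. It lay in the bin with the fewest strong peaks, to the left of the 77.4 kb gap that starts at 1627758. The lowest replicate 2 score among the 10, 120.68, belonged to chrIII:6116084-6117235, which scored 205.32 in replicate 1. It had rank 85 among the replicate 2 peaks on III and had no combined peak for 50898 bp to its left. The other 5 were chrIII:4170653-4171665 (combined score 194.56), chrIII:1532938-1534250 (194.12), chrIII:4568174-4569454 (190.75), chrIII:7572339-7573577 (189.88) and chrIII:640000-641060 (188.85).

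Of the 10 sites, 6 lay in the left section, 3 in the middle and 1 in the right, and none in the densest bin. This order is not that of strong peaks as a class, which were fewest in the left section. Peaks in the highest 10% of the combined list numbered 66 in the left, 92 in the middle and 78 in the right section. Those scoring 180 or more numbered 9, 9 and 7, a limit chosen after the values were seen. The 10 sites are therefore too few to describe the sections. Which genes lie at these sites was not analysed here, because the gene coordinates at hand are on the WBcel235 build and those of the peaks on WS220, and no sequence of the sites was read.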

How the data were processed

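Per the file headers, the authors called peaks with MACS on the WormBase WS220 build; per the submitters' processing notes, reads were aligned with BWA to ce10. Tool versions, filters on reads, whether the input served as control and how the combined list was made: not given in the sources used here. The deposited lists give each peak's start and end, counted from 1, beside a score whose scale is not stated. No values of the input libraries were used. Peaks on chromosome III were taken from 3 lists, and chromosome lengths from the last peak end in any list. A peak was placed by its midpoint, in bins of 1 Mb from base 1, windows of 100 kb and 3 sections of equal length. Overlap meant at least 1 bp. Density ratios carry exact conditional Poisson intervals, shares Wilson intervals, and medians binomial order-statistic intervals, all at 95%. The exception is the highest bin over the median bin, which carries the exact Poisson limits of that bin divided by the median. Those limits take the median bin as fixed and do not allow for the choice of the highest bin. No test was made. The overlap, spacing and interval code was tested on simulated data. Alternatives were another overlap rule, score limits, each list alone, covered bases, other bins and other divisions. Peaks named are the 10 highest-scoring found in both replicates, the 5 widest, the 5 longest gaps, and the densest and sparsest windows and bins; the 3 clusters with the most peaks were named after their values were seen. The members, classes and rules were chosen with earlier results of these data known. Tables were handled with pandas 2.3.3 and numpy 2.4.6 in Python 3.11.15, intervals came from scipy 1.17.1, and figures from matplotlib 3.10.9.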

Additional observations from a re-analysis of the deposited data

How the results depend on the processing

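Over 10 results and 60 alternatives, 25 values lay inside the reported value's interval, 29 lay outside it and 6 changed direction. The alternatives are not all separate checks. The strong-peak ratio of sections could not differ for peaks in both replicates, since all 538 strong peaks were in both. The top 10% of all peaks and the highest 10% as strong peaks are the same peaks, with the same ratio of 1.28. Each replicate's own list stands for leaving out the other, since the combined list cannot be remade without reads. The III-to-rest density ratio was 1.82 with the top 10% and otherwise 1.56 to 1.66. The middle-to-outer ratio of all peaks changed direction to 1.13 in replicate 2, 1.16 for peaks in both replicates, 1.08 by covered bases, 1.16 with the top 50% and 1.28 with the top 10%. That of weak peaks was 0.667 in replicate 1 and, for the lowest 10%, 1.02. That of strong peaks ran from 1.28 (highest 10%, 0.973 to 1.67) to 1.60. The highest bin over the median bin was 1.17 in replicate 2, 1.09 for peaks in both, 1.10 with the top 50%, 1.30 with the top 10% and 1.17 by covered bases. Without the 12 to 13 Mb bin, chosen after the data were seen, the III-to-rest ratio was 1.57 and the middle-to-outer ratio 0.972. Median spacing was 3239 bp in replicate 1, 3897 bp in replicate 2, 5990 bp for peaks in both, 2208 bp as gaps and 3473 bp after merging peaks under 200 bp apart. The strong-to-weak width ratio was 4.64 in replicate 1, 3.65 in replicate 2, 2.33 for peaks in both (10 weak peaks) and 5.86 with the outer 10%. The share in both replicates was 36.2% with a 50% reciprocal overlap, 45.4% with midpoints within 200 bp, 64.3% with the top 50% and 54.2% with the top 10%. For replicate 1 peaks, the share with a replicate 2 partner was 44.7%, 55.3% and 73.9% under the first 3 and 71.98% with equal numbers of peaks; for replicate 2 peaks with a replicate 1 partner it was 55.97%, 69.5%, 94.6%, 80.1% (top 10%) and 79.99%. Score limits remove partners of lower score by construction; for the other changes the cause was not tested. No paired analysis was possible because ChIP is the sole group with peaks, and inputs of the same numbers have no values here. Without reads, a peak missing from a list cannot be told apart from one below its threshold.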
